A study of Mus musculus with 60 samples.

Results

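The comparison was of prefrontal cortex from mice heterozygous for the K228E allele of Tbr1 (HT) with that of wild-type mice (WT) under vehicle, and it rested on 20 of the 60 RNA-seq libraries, taken by genotype, treatment and sex from their titles. There were 5 HT females, 5 HT males, 5 WT females and 5 WT males, all C57BL/6J. Each mouse had received vehicle, the carrier without drug, through its mother's milk from postnatal day 3 to 24 (3 weeks) and was taken at day 25. The other 40 libraries came from mice of the same genotypes and sexes given fluoxetine or lithium in that way, 20 for each drug. Litters, dams and batches are not among the labels. The p-values therefore cover the spread from library to library alone, and pups of 1 litter would share their treatment.

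Tbr1 encodes a T-box transcription factor made by early-born projection neurons of the cortex, chiefly in layer 6 and the subplate, and by Cajal-Retzius cells, which line the cortical surface during development and secrete reelin. It helps to set the identity and the axon targets of deep-layer neurons, and the amygdala and the projection neurons of the olfactory bulb make it too. The K228E allele replaces a lysine of the DNA-binding T-box domain with glutamate. Mutations of the human gene are known in autism and intellectual disability.

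The values, called normalised reads below, are a gene's reads over the size factor of its library. The 20 vehicle libraries held 24000725 to 36515331 reads (median 28240095.5). Differences are HT minus WT of log2(normalised reads + 1), adjusted for sex and tested with limma over 17193 genes, and a gene was called at a Benjamini-Hochberg adjusted p below 0.05. That scale understates the change of genes with few reads.

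Before any result, the level of olfactory bulb markers differed between the groups. Cortical neurons were well represented, with Slc17a7, the vesicular glutamate transporter of cortical projection neurons, at 19078 to 59118 normalised reads. Markers of the olfactory bulb, which lies against the prefrontal cortex, were also present in every library. The bulb mean, the average log2 level of 7 markers (Eomes, Tbx21, Cdhr1, Doc2g, Shisa3, Trh and Th), was 10.9, 9.28, 8.56, 5.13 and 8.73 in HT females 1 to 5 and 8.56, 9.9997, 8.33, 7.71 and 7.90 in HT males 1 to 5. In WT females 1 to 5 it was 10.3, 10.7, 10.9, 9.13 and 9.70, and in WT males 1 to 5 it was 8.92, 10.1, 9.75, 11.1 and 9.55. Most HT libraries thus held less RNA of these markers than the WT libraries. HT female 1 held almost as much as the highest WT library, and HT female 4 held the least of all. A difference in dissection and an effect of genotype on the bulb, whose projection neurons make Tbr1, cannot be told apart here. All 7 markers had a negative difference, from -1.73 (Eomes) to -1.30 (Th). Each was at an unadjusted p below 0.05 (12% of all genes had that p and a negative difference), and none was called. Striatal markers were high in HT males 4 and 5, with a list mean of 9.86 and 9.68 against 7.34 to 8.76 in the other 18 libraries. Every comparison was therefore made with no covariate and again with 2 bulb covariates, the bulb mean and its antilog (2 to the power of that mean), and counts of calls with no covariate are also given without HT female 1, whose omission changed them most. Differences with the covariates are those at an equal bulb mean.

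Tbr1 itself (chr2:61802930-61814114, plus strand, GRCm38) was at 1167, 3168, 4304, 4980 and 4323 normalised reads in HT females 1 to 5 and at 4558, 2909, 4362, 4938 and 4932 in HT males 1 to 5. In WT females 1 to 5 it was at 2020, 1644, 1197, 3218 and 2894, and in WT males 1 to 5 at 3309, 2035, 2740, 845 and 2806. Of the 10 HT libraries, 7 lay above the highest WT library, and HT female 1 lay below all other libraries but WT male 4. The difference was 0.82 (SE 0.27, 95% interval 0.25 to 1.39), a 1.77-fold higher level, and was not called by limma (adjusted p = 0.236). With the bulb covariates it was 0.19 (SE 0.06, interval 0.07 to 0.31), a 1.14-fold higher level, with an unadjusted p of 0.00386 and an adjusted p of 0.595. As a test of this single gene without covariates, an exact permutation of genotype within each sex gave a two-sided p of 0.0121 (63504 permutations; 0.0121 when adjusted over the 3 treatments). Without HT female 1, the difference with no covariate was 1.004 and was called (limma, adjusted p = 0.0314). Reads of the gene do not tell the alleles apart, so they give no check of the genotype labels. In bulk tissue, fewer cells of a type and less RNA per cell cannot be told apart, here and in every result that follows.

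**Figure D1:**
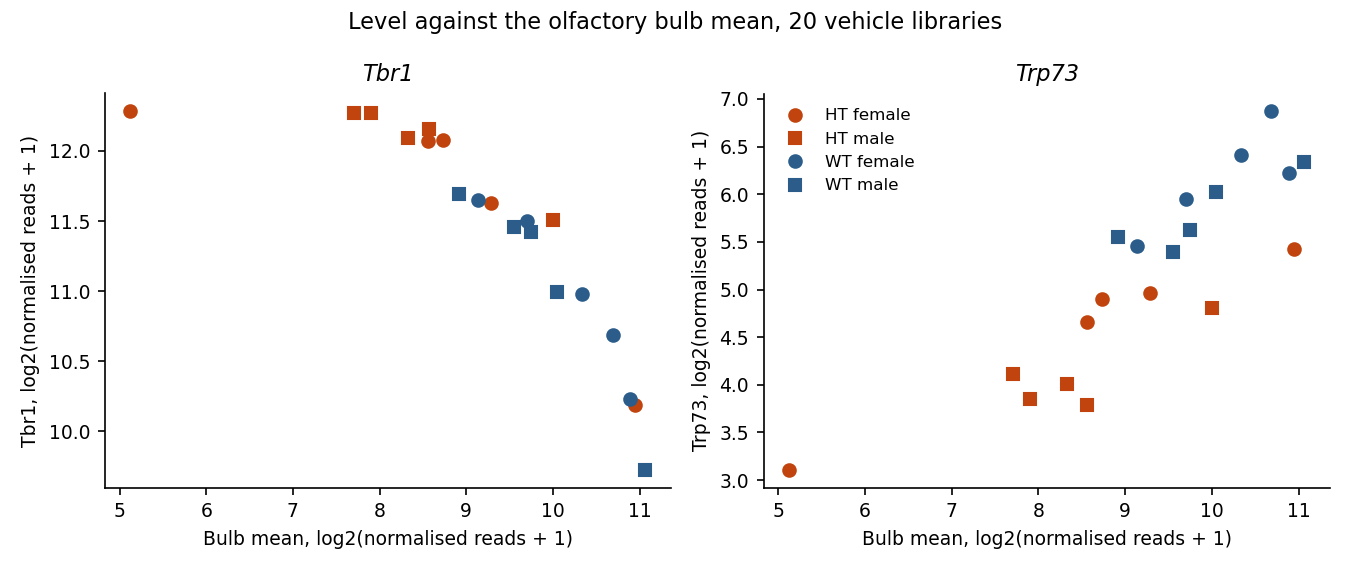
Tbr1 (left) and Trp73 (right) on the log2(normalised reads + 1) scale against the bulb mean on the same scale, 1 point per vehicle library, with color for genotype and shape for sex. Tbr1 is lower and Trp73 higher where the bulb mean is high, and HT female 1, at a bulb mean of 10.9, lies with the WT libraries of a like bulb mean for Tbr1 and below them for Trp73.

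With no covariate, 2 of 17193 genes (0.0116%) fell in HT and none rose. They were Trp73, which encodes the p53 relative p73 and marks Cajal-Retzius cells in the cortex, and Cebpd, which encodes a C/EBP transcription factor induced by glucocorticoids and inflammatory signals. With the bulb covariates, 1 gene (0.00582%) was called, and it was Trp73. No gene had all 10 HT libraries on one side of all 10 WT libraries. At an unadjusted p below 0.05 there were 3499 genes (20.4%) with no covariate and 1137 (6.61%) with the covariates. edgeR on the recovered reads called 2 and 1 genes, and DESeq2 called 22 (0.128%), 5 of them higher (0.0291%) and 17 lower (0.0989%), and 6 (0.0349%), all lower in HT.

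Trp73 (chr4:154056253-154140208, minus strand) was at 42.0, 30.3, 24.3, 7.62 and 28.8 normalised reads in HT females 1 to 5 and at 12.9, 27.0, 15.1, 16.3 and 13.5 in HT males 1 to 5. In WT females 1 to 5 it was at 84.2, 116, 73.9, 42.9 and 60.7, and in WT males 1 to 5 at 45.8, 64.1, 48.2, 79.9 and 41.1. The groups overlapped only by HT female 1, the highest HT library, which lay just above the lowest WT library, WT male 5. Trp73 fell by 1.62 (SE 0.24, interval -2.13 to -1.11) on the log2 scale, a 3.07-fold lower level (limma, adjusted p = 0.0159). At an equal bulb mean it fell by 0.99 (SE 0.14, interval -1.28 to -0.70), a 1.99-fold lower level (limma, adjusted p = 0.0107). In single-sex fits with no covariate the difference was -1.57 in females and -1.67 in males, neither called by limma with 5 libraries a group (adjusted p = 0.828 and 0.374). The call without the covariates was kept when HT female 1 was left out (-1.72, adjusted p = 0.0114), whereas the call with them was lost (-0.92, adjusted p = 0.342). With no covariate the adjusted p also passed 0.05 without HT male 1, 3 or 5, WT female 1 or 2, or WT male 2 (0.05003 to 0.0519), and with the covariates without HT female 4, HT male 2 or WT male 1 (0.0547 to 0.0608).

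RefSeq windows were at hand for 2 starts of Trp73, an outer one, whose transcripts encode the protein with its transactivation domain, and one inside the gene, whose transcripts encode the form without it. Gene-level reads do not tell them apart. The 250 bases before each start are shown because Trp73 was called in both fits, 5′ to 3′ on the gene's strand (GRCm38.p6), with CpG dinucleotides in capitals.
Outer start, chr4:154139876-154140125: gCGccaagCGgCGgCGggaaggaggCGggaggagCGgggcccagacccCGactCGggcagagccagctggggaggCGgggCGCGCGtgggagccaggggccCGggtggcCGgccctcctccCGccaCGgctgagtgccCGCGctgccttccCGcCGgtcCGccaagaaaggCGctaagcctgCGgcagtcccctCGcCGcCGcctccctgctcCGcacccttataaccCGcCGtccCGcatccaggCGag
Internal start, chr4:154097174-154097423: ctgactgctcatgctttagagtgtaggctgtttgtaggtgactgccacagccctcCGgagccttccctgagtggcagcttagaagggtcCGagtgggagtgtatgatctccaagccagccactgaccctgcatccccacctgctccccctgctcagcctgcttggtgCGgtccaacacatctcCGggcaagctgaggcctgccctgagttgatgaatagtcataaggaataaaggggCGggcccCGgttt
The outer window holds 31 CpG dinucleotides and is 77.2% G or C, and 5.19% of all 32851 RefSeq windows of that length hold at least as many. The internal window holds 6, the median over all windows, and is 58.4% G or C. Windows from 250 bases before to 50 after a start were searched on both strands for AGGTGTGA, a sequence that T-box factors bind, and for its core GGTGTGA, which overlaps it. They occur in 1.28% and 3.98% of the 32851 windows, and in 1.04% and 4.20% of the 12347 tested genes that had a window. Of 16 genes looked up (Tbr1 and those of smallest p in either fit), 11 had a RefSeq window, none of these held AGGTGTGA and 1, Rassf1, held the core. Cebpd, Shisa6, Atp10d, Ly6g6e and Gm45493 were not matched.

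Cebpd (chr16:15887286-15891031, plus strand) was at 84.9, 89.95, 100.45, 76.1 and 80.1 normalised reads in HT females 1 to 5 and at 89.1, 91.1, 67.5, 69.8 and 70.5 in HT males 1 to 5. In WT females 1 to 5 it was at 127, 152, 189, 127 and 131, and in WT males 1 to 5 at 112, 115, 100.43, 185 and 120. HT female 3 and WT male 3 had nearly the same level, and all other HT libraries lay below all WT libraries. Cebpd fell by 0.70 (SE 0.11, interval -0.92 to -0.48), a 1.63-fold lower level (limma, adjusted p = 0.0159). With the bulb covariates the difference was -0.55 (SE 0.10, interval -0.76 to -0.33) and was not called (limma, adjusted p = 0.274). Without HT female 1 the difference with no covariate was -0.70 (adjusted p = 0.0191), and without HT females 1 and 4 it was -0.67 (adjusted p = 0.0638). The call was lost, at an adjusted p of 0.05003 to 0.0519, without HT male 3 or 5, WT female 1 or 2, or WT male 2.

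**Figure D2:**
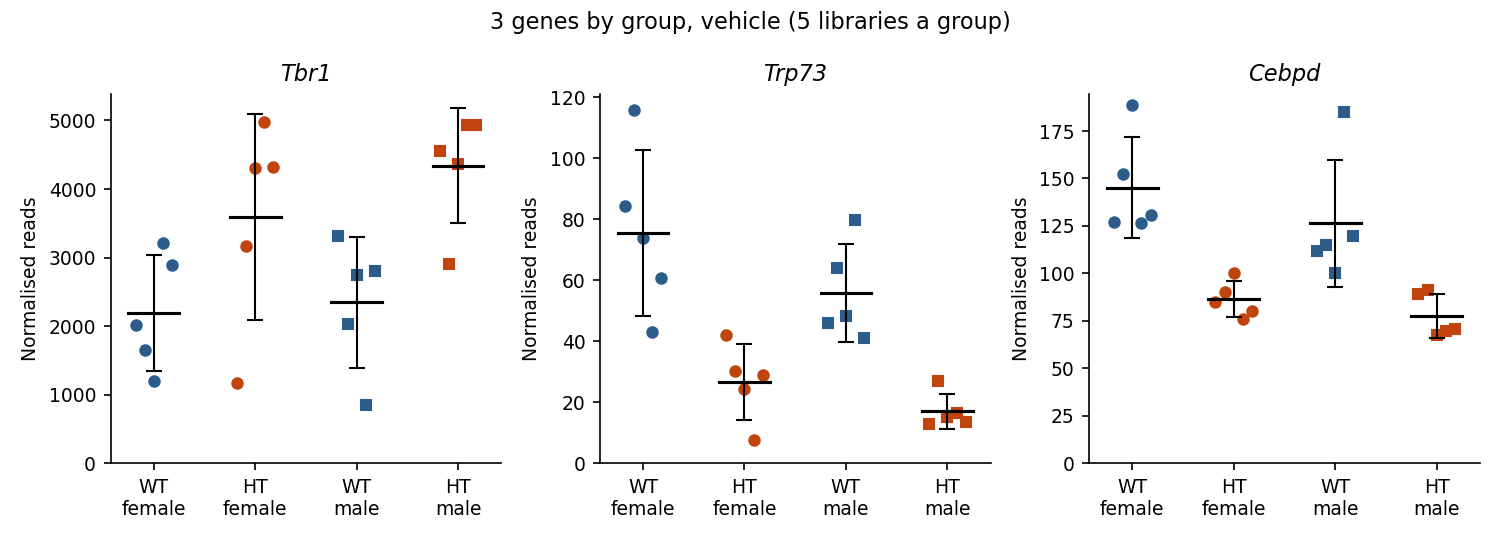
Normalised reads of Tbr1, Trp73 and Cebpd in the 4 vehicle groups, 1 point per library, with the group mean (bar) and SD (whiskers), n = 5 a group. Trp73 and Cebpd are lower in both HT groups than in the WT group of the same sex, and Tbr1 is lowest in HT female 1 and HT male 2 within their groups.

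Trp73 belongs to the Cajal-Retzius list, of which 9 of 10 members were tested. With no covariate the median difference of the list was -0.89, against -0.00 over all genes tested, with 7 members at a negative difference and an unadjusted p below 0.05 (12% of all genes were). limma called only Trp73 of the list, and DESeq2 with no covariate also Nhlh2. Without HT female 1 and with no covariate, limma called 6 of the 9, all lower in HT (11.5% of all genes were called lower). The median absolute correlation of the 9 with the bulb mean was 0.86, against 0.43 over all genes. Reln, which encodes reelin, had a median of 3120 normalised reads over the HT libraries (2563 to 6356) and 5065 over the WT libraries (3404 to 6501), a difference of -0.54 (SE 0.14). Nhlh2, a helix-loop-helix factor of these cells, had medians of 7.63 (2.18 to 12.8) and 18.7 (6.44 to 39.5), a difference of -1.17 (SE 0.26). Ebf3, an early B-cell factor family member, had medians of 36.2 (16.3 to 63.0) and 68.7 (36.5 to 136), a difference of -0.89 (SE 0.24).

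At an equal bulb mean the median of the Cajal-Retzius list was -0.18, against -0.01 over all genes, and 4 members had a negative difference and an unadjusted p below 0.05 (3.93% of all genes). These were Trp73, Nhlh2 at -0.60 (SE 0.22), Ebf3 at -0.31 (SE 0.15) and Reln at -0.18 (SE 0.05), and Trp73 alone was called. Ndnf and Calb2 stood at -0.01 (SE 0.06) and 0.09 (SE 0.05). Other neurons also make these 2. Calb2 is on a second list of bulb genes as well, and Reln is on the interneuron list. Of the 9 members, 7 had a negative and 2 a positive difference at an equal bulb mean. The list mean followed the bulb mean from library to library (r = 0.96 over the 20 libraries). It was lowest in HT female 4 (5.95), which had the lowest bulb mean, and highest in WT male 4 (8.50), which had the highest. By gene, the correlation with the bulb mean was 0.86 for Trp73, 0.87 for Reln, 0.88 for Ebf3 and 0.81 for Nhlh2. The part of bulb RNA in the Trp73 difference that remains with the covariates was not tested.

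Dropping HT female 1 raised the number of genes called with no covariate from 2 to 3691 of 17147 (21.5%), 1721 of them higher in HT and 1970 lower. No other library had such an effect: leaving out any of the other 19 gave 0 to 5 genes. Without that library all 7 bulb markers were called lower in HT, and so were 9 of 10 further bulb genes and all 8 genes of migrating neuroblasts, the immature neurons that travel to the bulb. The count also rested on HT female 4, the library with the least bulb RNA: without both of these HT females, 3 genes were called. Over all 20 libraries, each of the 1721 genes called higher correlated negatively with the bulb mean. Each of the 1970 genes called lower correlated positively with it. The median absolute correlation was 0.72 over the called genes and 0.34 over the others. With the bulb covariates, all 20 libraries in, 294 of the 3691 (7.97%) had an unadjusted p below 0.05, against 6.61% of all genes. Among the 3691, Dcx, a microtubule protein of migrating neurons, stood at -0.87 without HT female 1, Sst, the interneuron peptide somatostatin, at 0.81, and Fezf2, a layer 5 transcription factor, at 0.83. With the covariates and all 20 libraries these 3 stood at -0.00 (SE 0.05), -0.01 (SE 0.09) and -0.09 (SE 0.10).

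**Figure D3:**
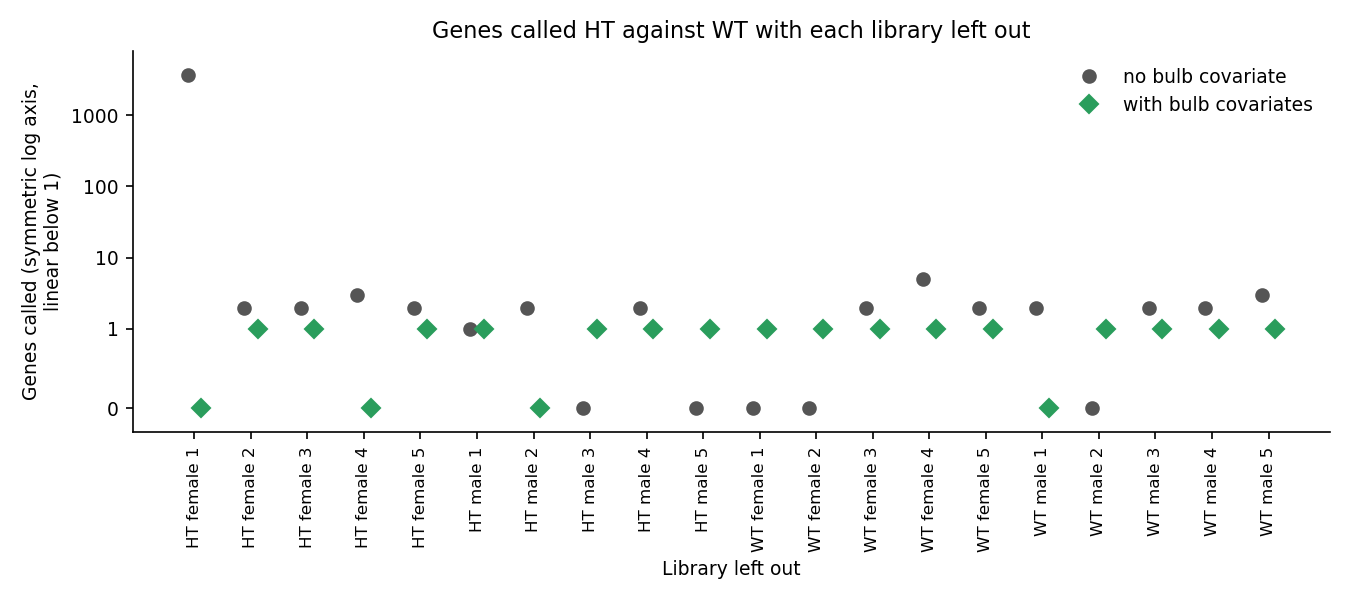
Number of genes called HT against WT under vehicle (vertical symmetric log axis) when the library on the horizontal axis is left out, with no covariate (circles) and with the bulb covariates (diamonds). Leaving out HT female 1 gives 3691 calls with no covariate and 0 with the covariates, and the other libraries give 0 to 5 and 0 to 1.

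The differences of most gene lists shrank or turned when the bulb covariates entered. Further bulb genes, such as Sp8 and Tshz1, had a median of -0.83 over 10 members with no covariate and 0.00 with the covariates. The 8 genes of migrating neuroblasts had medians of -0.85 and -0.01. Presynaptic release genes, which make up the vesicle fusion machinery, had 21 of 22 members at a positive difference with no covariate (median 0.19). With the covariates, 21 of 22 were at a negative one (median -0.05). Over all 17193 genes, 8547 were positive with no covariate and 9129 negative with the covariates. The AMPA receptor list moved from a median of 0.07 to -0.05 and the postsynaptic scaffold list from 0.16 to -0.03. limma called no member of these lists in either fit, and DESeq2 called 1, Shisa6 of the AMPA receptor list, in both. Without HT female 1, limma with no covariate called 9 of 22 presynaptic, 13 of 21 AMPA receptor and 7 of 17 postsynaptic genes, where 21.5% of all genes were called. Median absolute correlations with the bulb mean were 0.75, 0.75 and 0.72 for these lists, against 0.43 over all genes.

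**Figure D4:**
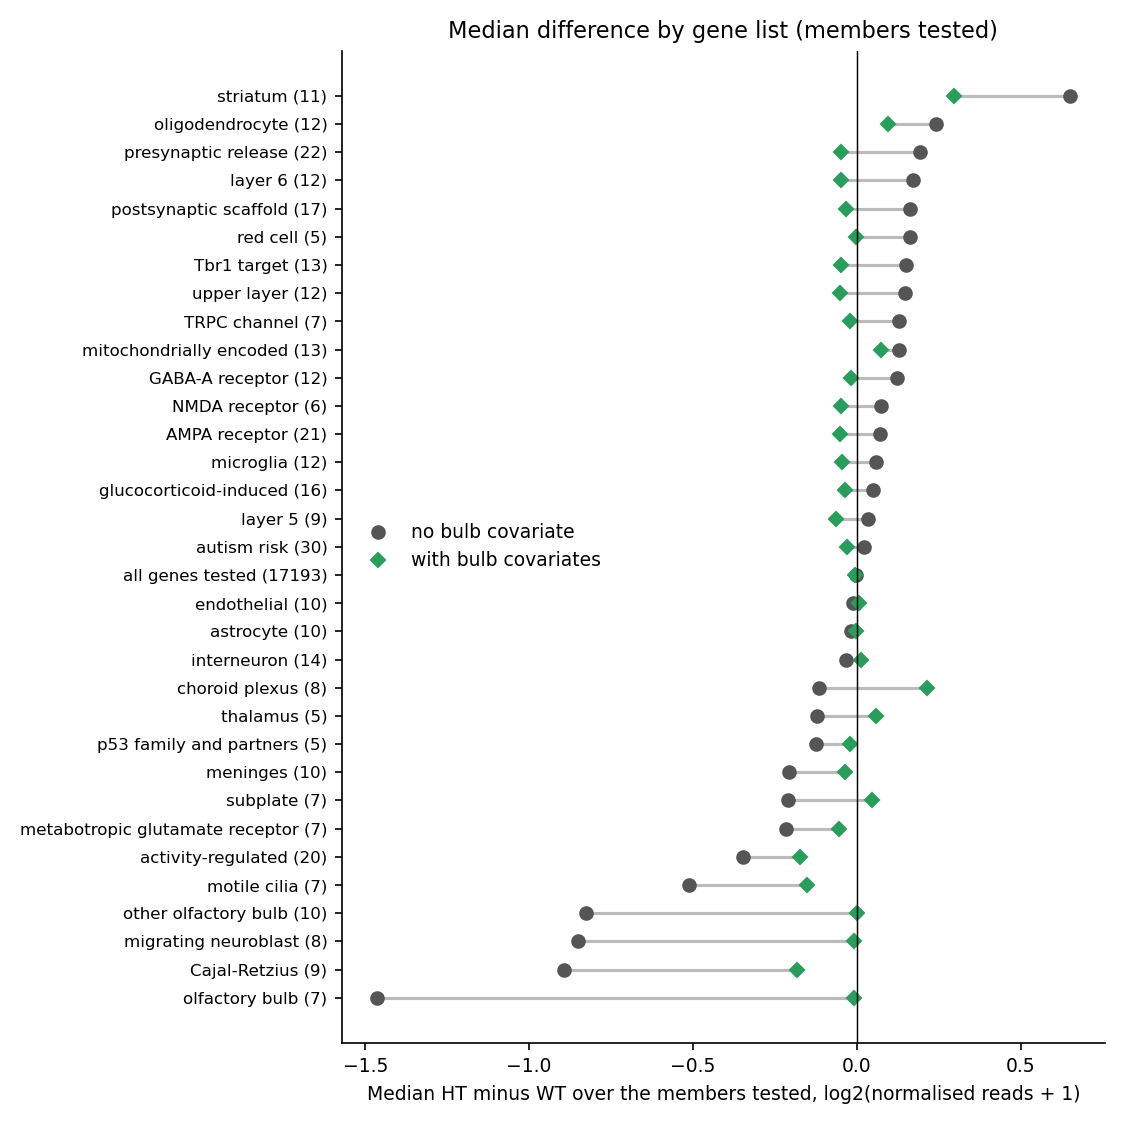
Median HT minus WT difference (log2(normalised reads + 1)) of each gene list, with the number of members tested, with no covariate (circles) and with the bulb covariates (diamonds). Bulb, neuroblast and Cajal-Retzius genes lie between -1.47 and -0.83 with no covariate. With the covariates the medians are -0.18 for the Cajal-Retzius list, -0.01 for the neuroblast list and 0.00 for the further bulb genes. The 7 bulb markers make up the covariates, so their median near 0 there was set by the fit.

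With all 20 libraries, limma called no marker of a cortical layer in either fit. Without HT female 1 and with no covariate it called 1 of 12 layer 6, 3 of 7 subplate, 3 of 9 layer 5 and 5 of 12 upper layer genes (21.5% of all genes). The layer 6 list, whose neurons make Tbr1, had a median of 0.17 with no covariate and -0.05 with the covariates. At an equal bulb mean 1 of its 12 members had an unadjusted p below 0.05, near the share over all genes (6.61%). That member was Sla, an adaptor protein, at -0.25 (SE 0.11). Of 7 subplate genes, Nxph4, a neurexophilin, stood at -0.97 (SE 0.28) with no covariate and -0.31 (SE 0.16) with the covariates. In the layer 5 list Tshz2, a zinc finger factor, stood at -0.03 (SE 0.08) and 0.15 (SE 0.04). The upper layer list had medians of 0.15 and -0.05.

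Of 13 genes described as direct or indirect targets of Tbr1, limma called none with all 20 libraries, and the median was 0.15 with no covariate and -0.05 with the covariates. Wnt7b, a secreted Wnt ligand, had HT values of 625 to 1725 normalised reads (median 1241) and WT values of 453 to 1704 (median 1116). Its difference was 0.20 (SE 0.20) with no covariate and -0.22 (SE 0.06, unadjusted p = 0.00219) with the covariates. Ntng1, a netrin-related adhesion protein, stood at -0.55 (SE 0.19) and -0.09 (SE 0.07), and Auts2, a chromatin regulator linked to autism, at -0.22 (SE 0.08) and -0.03 (SE 0.04). Without HT female 1 and with no covariate, 6 of the 13 were called (46.2%, against 21.5% of all genes), 3 higher and 3 lower in HT. Among them were Reln at -0.63, Ntng1 at -0.66 and Auts2 at -0.28. The median absolute correlation of the 13 genes with the bulb mean was 0.73, against 0.43 over all genes. Of 30 autism risk genes limma called none with all 20 libraries and 8 without HT female 1 with no covariate (26.7%). At an equal bulb mean their median was -0.03 and 2 (both negative) had an unadjusted p below 0.05, near the share over all genes (6.61%).

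Activity-regulated genes, which neurons switch on within minutes of firing, had the same sign in both fits for most members. Of 20, 19 had a negative difference with no covariate (median -0.35) and 16 with the covariates (median -0.17), and limma called none. Over all 17193 genes, 8646 and 9129 were negative in these 2 fits. Without HT female 1 and with no covariate, limma called 9 of the 20 (21.5% of all genes), 8 of them lower in HT (11.5% of all genes). Npas4, a neuronal activity-dependent factor, had 593 normalised reads at the median over the HT libraries (296 to 1327) and 1183 over the WT libraries (789 to 3048), a difference of -0.97 (SE 0.27) and, with the covariates, -0.55 (SE 0.24). Fos stood at -0.78 (SE 0.24) and -0.49 (SE 0.25), and Btg2, an antiproliferative early gene, at -0.81 (SE 0.23) and -0.45 (SE 0.22). For Npas4, 7 HT libraries lay below the lowest WT library, and HT female 1 was the highest HT library.

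Cebpd is on a list of 16 glucocorticoid-induced genes, of which limma called it alone with all 20 libraries. DESeq2 also called Ddit4 and Nfkbia with no covariate and Ddit4 with the covariates. Without HT female 1 and with no covariate, limma called 5 of the 16 (31.2%, against 21.5% of all genes). The list had no shared direction, with 10 members positive and 6 negative with no covariate (median 0.05). With the covariates 7 were positive and 9 negative (median -0.04). There, 4 had a negative difference and an unadjusted p below 0.05 (3.93% of all genes), and 1 had a positive one at that p (2.69%). Ddit4, an inhibitor of mTORC1 induced by stress and glucocorticoids, had HT values of 944 to 1774 normalised reads (median 1201) and WT values of 1189 to 2236 (median 1589), a difference of -0.32 (SE 0.07) and, with the covariates, -0.24 (SE 0.05, adjusted p = 0.317 by limma). Nfkbia, an inhibitor of NF-kappa-B, stood at -0.28 (SE 0.07) and -0.22 (SE 0.05). Sgk1, a kinase of the same hormone response, stood at 0.02 (SE 0.15) and -0.31 (SE 0.10).

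Among the genes of smallest p with no covariate, Dsp, which encodes the desmosome protein desmoplakin, had HT values of 5.44 to 35.6 normalised reads (median 14.6) and WT values of 21.1 to 63.5 (median 45.1). Its difference was -1.44 (SE 0.25, adjusted p = 0.0832 by limma) and, with the covariates, -0.84 (SE 0.18, adjusted p = 0.392). Car15, a carbonic anhydrase, was the gene of this set with a positive difference, with HT values of 115 to 166 (median 131), WT values of 80.2 to 129 (median 92.6) and a difference of 0.46 (SE 0.08) and 0.33 (SE 0.09) in the fits without and with the covariates. Shisa6, an AMPA receptor auxiliary protein, had HT values of 371 to 597 (median 407) and WT values of 472 to 884 (median 681), with differences of -0.62 (SE 0.12) and -0.36 (SE 0.08). limma called none of the 3 with all 20 libraries, and DESeq2 called all 3 with no covariate and Shisa6 with the covariates.

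Further genes of small p with no covariate were Trpc7, a calcium-permeable TRPC channel, at -0.47 (SE 0.09) and -0.34 (SE 0.09), Atp10d, a lipid flippase, at -0.39 (SE 0.09) and -0.43 (SE 0.09), Rassf1, a Ras association domain protein, at -0.21 (SE 0.05) and -0.15 (SE 0.04), and Ly6g6e at -1.12 (SE 0.24) and -0.60 (SE 0.18). The difference of Atp10d did not shrink with the covariates, and 9 of 10 HT libraries lay below the lowest WT library. DESeq2 called Dsp, Car15, Trpc7, Shisa6, Atp10d, Ly6g6e, Ddit4 and Nfkbia with no covariate, and Htr1a, Shisa6, Atp10d and Ddit4 with the covariates, beside Trp73 and Cebpd in both, and among others with no covariate Nhlh2 and Fap.

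Genes that had a small p only at an equal bulb mean included Htr1a, which encodes the serotonin 1A receptor. It had HT values of 206 to 670 normalised reads (median 570) and WT values of 196 to 640 (median 445), so that the groups overlapped nearly fully. Its difference was 0.26 (SE 0.24) with no covariate and -0.30 (SE 0.06, adjusted p = 0.300 by limma) with the covariates. Garnl3 stood at -0.20 (SE 0.05) and Myh7b, a myosin heavy chain, at -0.28 (SE 0.07) with the covariates, and none of these was called by limma.

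Striatal genes were the list with the highest positive median, 0.65 with no covariate and 0.30 with the covariates. Pde10a, a phosphodiesterase of striatal projection neurons, was at 1270 to 2775 normalised reads in the HT libraries other than HT males 4 and 5, at 5290 and 4676 in those, and at 962 to 1859 in the WT libraries. Its difference was 0.66 (SE 0.20) with no covariate and 0.48 (SE 0.21) with the covariates. limma called no striatal gene with all 20 libraries. With no covariate and without HT female 1 it called 5 of 11, all higher in HT (10% of all genes were called higher). Leaving out HT males 4 and 5 gave no called gene with no covariate (1697 at an unadjusted p below 0.05; Trp73 at -1.58, adjusted p = 0.176) and kept Trp73 as the gene called with the covariates (-1.01, adjusted p = 0.0207, limma).

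With all 20 libraries, limma called no member of the lists of other cell types. Without HT female 1 and with no covariate it called 4 of 10 astrocyte, 1 of 10 endothelial and 1 of 7 choroid plexus genes (21.5% of all genes). None of the oligodendrocyte, microglial, meningeal and red cell lists was called there. With the covariates the medians were 0.10 over 12 oligodendrocyte genes, -0.05 over 12 microglial genes, 0.01 over 10 endothelial genes, -0.00 over 10 astrocyte genes, 0.22 over 8 choroid plexus genes, -0.04 over 10 meningeal genes and -0.00 over 5 red cell genes. Meningeal markers bear on Trp73 because Cajal-Retzius cells lie beneath the meninges. With no covariate that list had a median of -0.21 with 4 of 10 members at a negative difference and an unadjusted p below 0.05 (12% of all genes), among them Col1a1 at -0.24 (SE 0.10) and -0.09 (SE 0.10) with the covariates. Its mean level was 8.40 to 9.12 over the HT libraries and 8.63 to 9.42 over the WT libraries, and its part in the Trp73 difference was not tested. The motile cilia list had a median of -0.51 over 7 tested members with no covariate and -0.15 with the covariates. With no covariate, 3 of the 7 had a negative difference and an unadjusted p below 0.05 (12% of all genes), and with the covariates 0 did. Without HT female 1 and with no covariate, limma called 3 lower (11.5% of all genes). Its part in the Trp73 difference was not tested either. The Mal and Opalin genes of myelin stood at 0.23 (SE 0.27) and 0.08 (SE 0.30) with the covariates.

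Of the 10 measured genes nearest to Tbr1 on chromosome 2, 5 had a positive difference and an unadjusted p below 0.05 with no covariate (8.31% of all genes) and 2 did with the covariates (2.69%). Fap, a membrane protease, had HT values of 65.2 to 122 normalised reads (median 108) and WT values of 57.9 to 99.9 (median 66.7), with differences of 0.46 (SE 0.10) and 0.32 (SE 0.11). Ifih1, an RNA sensor of the interferon response, stood at 0.23 (SE 0.06) and 0.18 (SE 0.07). Dpp4, the protease beside Fap, stood at 0.56 (SE 0.20) and 0.17 (SE 0.12), and Psmd14, the gene before Tbr1, at 0.15 (SE 0.05) and 0.09 (SE 0.04). limma called none of the 10 with all 20 libraries. DESeq2 called Fap with no covariate (0.48, adjusted p = 0.0210). Without HT female 1 and with no covariate, limma called 6, all higher in HT (10% of all genes were called higher).

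The effect of genotype was not found to differ between the sexes. The interaction of genotype and sex gave no gene with limma, with 208 genes (1.21%) at an unadjusted p below 0.05 with no covariate and 786 (4.57%) with the covariates, and no other tool was run for it. For Trp73 the male minus the female effect was -0.10 (SE 0.50) and, with the covariates, -0.21 (SE 0.23), and for Cebpd it was 0.06 (SE 0.22) and 0.08 (SE 0.18). These errors leave room for sizeable differences between the sexes. For Tbr1 it was 0.36 (SE 0.55) and 0.27 (SE 0.08), the latter at an unadjusted p of 0.00289 and not called.

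The same comparison in the fluoxetine and in the lithium libraries rests on other mice. There the bulb means were 3.85 to 8.34 in HT and 4.07 to 7.67 in WT under fluoxetine, below most vehicle libraries, and 3.27 to 10.4 and 6.77 to 10.4 under lithium. Under fluoxetine 35 of 16962 genes (0.206%) were called with no covariate and 53 (0.312%) with the covariates, and under lithium 0 of 17048 (limma, 1078 or 6.32% at an unadjusted p below 0.05) and 1 (0.00587%). The median SE of a gene's difference, with no covariate, was 0.08 under vehicle, 0.05 under fluoxetine and 0.07 under lithium.

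Tbr1 rose under fluoxetine, by 0.36 (SE 0.04) with no covariate and 0.38 (SE 0.03) with the covariates, and all 10 HT libraries (3841 to 5238 normalised reads) lay above all 10 WT libraries (3191 to 3839). Under lithium it was at 2241 to 5241 in HT and at 1862 to 3883 in WT, a difference of 0.47 (SE 0.15) that was not called, and rose by 0.37 (SE 0.05) with the covariates (limma, adjusted p = 0.0152). The exact permutation within sex gave 3.15e-05 under fluoxetine, the smallest p it can give, and 0.0111 under lithium (9.45e-05 and 0.0121 adjusted over the 3 treatments). Against vehicle, the effect with the covariates was larger by 0.14 (SE 0.07) under fluoxetine and by 0.10 (SE 0.07) under lithium. With no covariate the direction was the reverse, at -0.47 (SE 0.27) and -0.35 (SE 0.27), and limma called none of these 4 differences. The fit with the covariates used the same bulb slopes in all treatments. No WT fluoxetine library (bulb mean 4.07 to 7.67) reached the bulb mean of a WT vehicle library (8.92 to 11.1). The contrast of fluoxetine with vehicle was thus not made at an equal bulb mean between treatments.

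Trp73 had a median of 12.9 normalised reads in HT (8.53 to 31.2) and 14.6 in WT (10.1 to 34.4) under fluoxetine, and 26.0 (12.1 to 49.7) and 55.0 (19.6 to 94.7) under lithium. Its difference with the covariates was -0.32 (SE 0.16) under fluoxetine and -0.59 (SE 0.20) under lithium, not called in either. Its effect under fluoxetine minus that under vehicle was 1.41 (SE 0.39) with no covariate and 0.72 (SE 0.26) with the covariates, unadjusted p = 0.00854, not called. The limit from the unlike bulb means of vehicle and fluoxetine libraries holds here and for the fluoxetine interaction below. Cebpd stood at -0.09 (SE 0.10) under fluoxetine and -0.29 (SE 0.15) under lithium with the covariates. The interactions of genotype with fluoxetine and with lithium gave no gene in either fit with limma, with 594 genes (3.34%) and 644 genes (3.62%) at an unadjusted p below 0.05 with the covariates and 2628 (14.8%) and 711 (4%) with none, and no other tool was run for them.

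**Figure D5:**
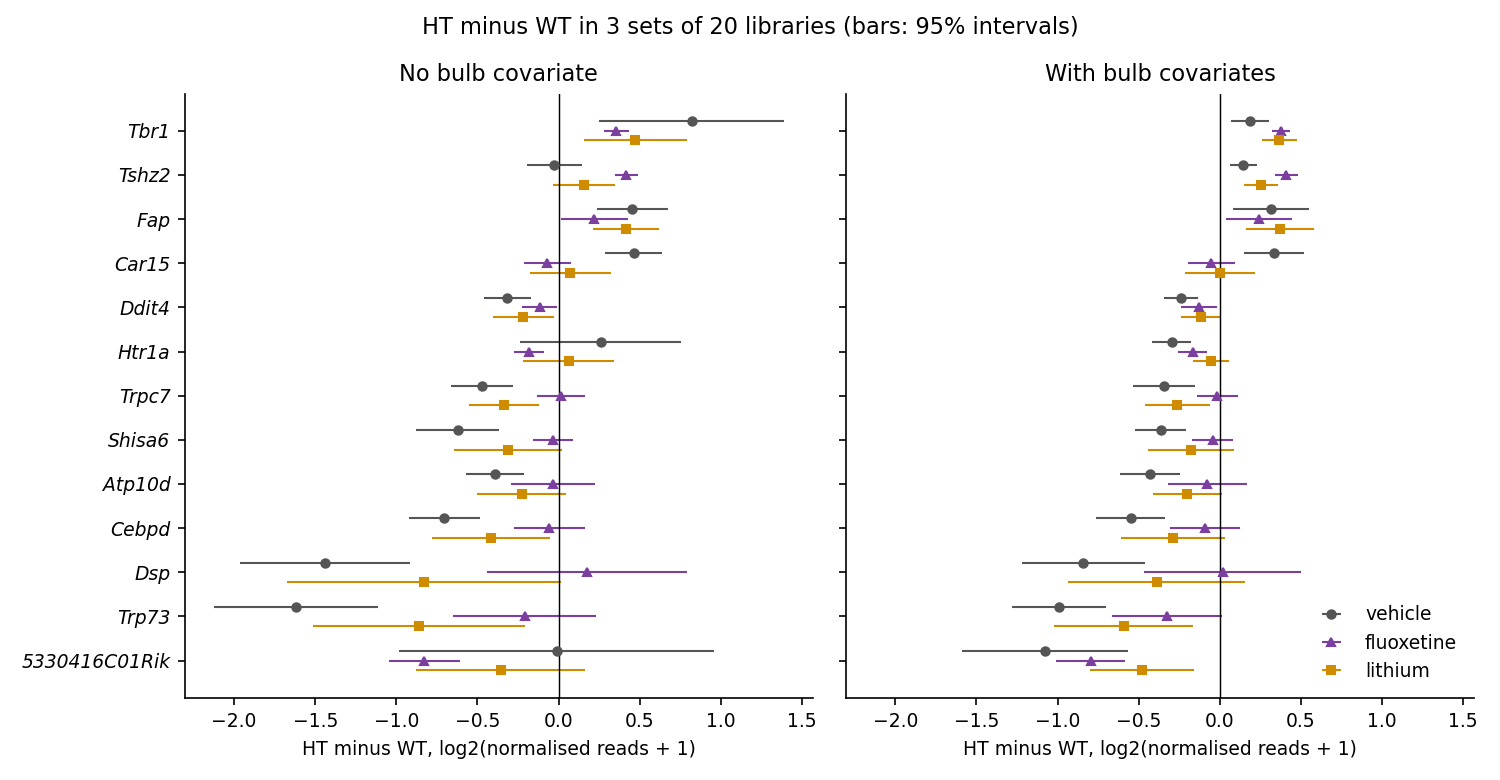
HT minus WT difference (log2(normalised reads + 1)) with its 95% interval for 13 genes under vehicle, fluoxetine and lithium (20 libraries each), with no covariate (left) and with the bulb covariates (right). Tbr1 and Fap lie above 0 in all 3 sets with the covariates, as does Tshz2, and there Car15 and Dsp lie near 0 under fluoxetine.

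The 53 genes called under fluoxetine with the covariates were read in the vehicle libraries, which share no mouse with them. Of these, 46 (86.8%) had the same sign under vehicle with the covariates, against 53.8% of the 16749 genes tested in both, and 14 (26.4%) had the same sign with an unadjusted p below 0.05, against 4.35% of those genes. The 29 genes higher under fluoxetine (0.171% of those tested) had a median of 0.05 under vehicle and the 24 lower ones (0.141%) a median of -0.17. 5330416C01Rik, a transcript of unknown function, fell by 0.80 (SE 0.10) under fluoxetine and stood at -1.08 (SE 0.25) under vehicle and -0.48 (SE 0.15) under lithium. Its vehicle value rested on the covariates and on HT female 1: it was -0.01 (SE 0.47) with no covariate, -0.69 with the covariates without that library, and HT (0.912 to 45.4 normalised reads) and WT (6.80 to 49.9) overlapped nearly fully. Arhgap25, a Rac GTPase-activating protein, had HT values of 124 to 235 normalised reads and WT values of 227 to 369 under fluoxetine, where it fell by 0.48, and its differences were -0.46 under vehicle and -0.43 under lithium. Tshz2 rose by 0.41 (SE 0.03) under fluoxetine and stood at 0.15 (SE 0.04) under vehicle and 0.25 (SE 0.05) under lithium. Arhgap25 overlapped widely between the groups under vehicle, at 63.0 to 281 in HT and 80.9 to 291 in WT. Under vehicle none of these 3 was called, with an adjusted p of 0.502, 0.502 and 0.567 by limma.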

How the data were processed

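Per the labels' protocols, libraries were made with a kit that keeps the strand of the mRNA. The authors deposited a signal for each of 18088 Ensembl genes in every library, which the values show to be reads over a library's size factor. The submitters' processing notes list Salmon 0.11.2, DESeq2 1.19.11, R 3.6.0 and GRCm38 without saying what each was used for, and the annotation release is not given in the sources used here. Whole reads were recovered for 100% of values at a tolerance of 1e-06, and size factors in the vehicle libraries ran from 0.851 to 1.27. On these reads edgeR 4.0.16 called 2 genes with no covariate and 1 with the bulb covariates, and DESeq2 1.42.0 called 22 and 6. No symbol was found for 11 identifiers, and 20 symbols stood for several identifiers. GENCODE gave the GRCm38 coordinates of the genes, and RefSeq the promoter windows.

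The main test was limma 3.58.1 (R 4.3.3) on log2(value + 1) (mean-variance trend, genotype and sex, two-sided), on genes at 10 or more in at least 5 of the 20 libraries, with Benjamini-Hochberg adjustment over all of them. The same fits were made in the fluoxetine and lithium libraries. Interactions with sex used the 20 vehicle libraries and those with a drug all 60.

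The comparison, the gene lists and the covariates were chosen with earlier results of these data known. Named genes are Tbr1, every called gene, the 10 of smallest p in each fit with a mean of at least 20, and up to 4 members of each list by smallest p in either fit; the 10 genes nearest to Tbr1 are counted. Ndnf, Calb2, Fap, the other neighbours given with values, the further genes DESeq2 called and the genes read under fluoxetine were chosen after their values were seen. The 3 alternatives that leave out pairs of libraries were also added after seeing the data.

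The smallest chi-square per degree of freedom among 40 pairs within groups was 6.12, so no library was counted as a duplicate. Xist was at 16603 or more in every female and 96.6 or less in every male vehicle library. On simulated counts with 200 changed genes, 81% of 1.5-fold and 91% of 2-fold changes were called with no covariate (17102 genes, 3.91% of calls false), and 86% and 96% with the covariates (17096 genes, 4.71% false). The simulation for the fit with no covariate held no shift of bulb RNA. In both simulations each gene was drawn on its own around its fitted mean. Other variation that genes share across libraries was thus left out, and the share of changes found in the tissue may be lower.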

Additional observations from a re-analysis of the deposited data

Results flagged for a closer look

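In groups of 5 libraries, a value was picked out when its gap to the next exceeded 0.71 of the group's range. Of 184 groups tested, 15 met this, and chance picks out about 1 in 20 groups. No explanation was tested for any of them.

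HT male 2 was the lowest HT male for Tbr1 (2909 normalised reads, the next at 4362) and the highest for Trp73 (27.0, the next at 16.3). Among the HT males it also had the highest mean log2 level of the p53 family list (8.20) and of the NMDA receptor list (11.86), and the lowest of the presynaptic release list (13.40). Its bulb mean, 9.9997, was the highest among the HT males.

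WT male 4, which had the highest bulb mean of the vehicle libraries, stood above the other WT males for Cebpd (185, the next at 120) and Ddit4 (1616, the next at 1268). It had the lowest mean log2 level of the upper layer (10.06), interneuron (10.03), AMPA receptor (11.54) and postsynaptic scaffold (12.44) lists.

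Dsp was at 63.5 normalised reads in WT female 2, the next at 46.0. The subplate list mean was 8.05 in HT male 3, the oligodendrocyte list mean 10.83 in WT male 2 and the TRPC channel list mean 7.53 in HT male 4, each the lowest of its group.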

How the results depend on the processing

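With no covariate, 2 genes were called, and the count became 1 with a mean of at least 100, 4961 with library quality weights, 22 with DESeq2, 6 with all 60 libraries in the fit, 1870 without HT female 1 and WT male 4, 3 without HT females 1 and 4 (1 of them shared with the 2), and 0 in females alone, in males alone, with a striatum covariate, or without HT males 4 and 5 (limma, 526, 2029, 1139 and 1697 at an unadjusted p below 0.05). Leaving out each library in turn gave 0 to 3691.

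With the bulb covariates, 1 gene was called. DESeq2 gave 6 and all 60 libraries 2. The count was 0 with a mean of at least 100, in females alone, in males alone, with no sex term, with the linear bulb covariate alone, without HT females 1 and 4, and without HT female 1 and WT male 4 (limma, 869, 1190, 600, 362, 1248, 911 and 892 at an unadjusted p below 0.05). Leaving out each library gave 0 to 1.

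With no mean-variance trend, 20 genes were called under fluoxetine with no covariate (35 before) and 0 under lithium with the covariates (1 before; 1232 at an unadjusted p below 0.05). Leaving out each library gave 16 to 42 and 33 to 67 genes under fluoxetine, without and with the covariates, 0 to 1 and 0 to 4 under lithium, 0 to 1 for the interaction with lithium with the covariates, and 0 for the other interactions.

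Deviations from the group means of same-numbered vehicle libraries correlated at -0.60 to 0.50 over 30 pairs, 12 of them above 0.1. Of 20 libraries, 8 correlated best with their own number. The labels do not say whether the number stands for a litter or a batch, and these values do not settle it. With the replicate number as a block, 2 genes were called with no covariate, 1 of them shared with the calls without it, and 0 with the covariates (1650 at an unadjusted p below 0.05). With no covariate the block kept the call of Trp73 (limma, adjusted p = 0.0371) and lost that of Cebpd (0.0658). With the covariates it lost that of Trp73 (limma, adjusted p = 0.0621). The block gave 33 and 52 genes under fluoxetine, 0 and 0 under lithium, and 0 for each interaction.

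No value changed sign where it was called. Trp73 ranged from -1.72 to -1.43 over 38 alternatives with no covariate (called in 28) and from -1.18 to -0.87 over 41 with the covariates (called in 30). Tbr1 ranged from 0.60 to 1.004 over 39 (called in 3) and from 0.05 to 0.35 over 42 (called in none). Cebpd was called in 28 of 39 and 1 of 42. The causes were not tested. Few reads limit the precision for Trp73, Nhlh2 and Dsp.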
